A study of Mus musculus with 24 samples.

Results

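Astrocytes are the glial cells that clear glutamate from synapses, buffer water and ions, and contact blood vessels with their endfeet. The genes that define them encode the proteins for these tasks, such as glutamate transporters, a water channel and gap junction subunits, and factors that specify the lineage. Trimethylation of lysine 4 on histone H3 (H3K4me3) is a histone mark found mainly at active promoters. By itself it does not show that a gene is transcribed. The promoters of 10 astrocyte identity genes, namely Aldh1l1, Gfap, Aqp4, Slc1a2, Slc1a3, Gja1, Sox9, Aldoc, Slc4a4 and Fgfr3, were followed here through H3K4me3 libraries of mouse cerebral cortex. Members were the count regions that overlap an annotated transcription start site (TSS) of one of these genes, and 10 of the 17993 regions met this rule. They belong to 9 of the 10 genes, because Slc4a4 has 2 such regions and Gfap has none that overlaps a TSS.

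The libraries came from C57BL/6 mice of 2 lines that both carry FLAG-tagged human histone H2B (H2B-FLAG) under the CAG promoter in the Rosa26 locus. In the Rosa H2B-FLAG line, the stop cassette had been removed with Vasa-Cre, the allele was heterozygous and the tagged histone is expressed ubiquitously from development on. In the Camk2a H2B-FLAG line, males heterozygous for the floxed allele and for CaMK-CreERT2 received tamoxifen at 1 mg per day for 5 days from an age of 8 weeks and were sampled a month later, so that the tagged histone is made in Camk2a-positive neurons. The age and sex of the Rosa H2B-FLAG mice are not given in the sources used here. From each line, 3 libraries were made by single ChIP-Seq, in which anti-H3K4me3 antibody alone was used on the whole chromatin, and 3 by tChIP-Seq, in which chromatin was first isolated with anti-FLAG antibody and then precipitated with anti-H3K4me3 antibody. Each lysate pooled 2 animals, so that p-values measure the spread between such pools. The sources do not say whether single ChIP-Seq and tChIP-Seq libraries of the same replicate number came from the same lysate. The main tests treat them as separate. Total counts were 6316125 to 8644574 in single ChIP-Seq and 1457261 to 1828371 in tChIP-Seq of the Rosa line, and 4063200 to 4233144 and 2709729 to 3049130 in the Camk2a line. Levels are CPM, counts scaled to a common library size by 1 trimmed mean normalization (TMM) over all 12 libraries and are given as mean ± SD over 3 libraries. Changes are log2 fold changes with SE from edgeR's quasi-likelihood test, and a region was called at a Benjamini-Hochberg adjusted p under 0.01 over all 17993 regions.

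For 6 promoters, the 250 bases of the mm9 genome before the TSS are shown because these 6 span the range of changes described below. Capitals mark CpG dinucleotides, and each sequence runs 5′ to 3′ toward the gene. Of the promoters shown that have a region on their TSS, Aldh1l1 and Gja1 were lower in tChIP-Seq of the Camk2a line by the widest margin. Gfap is the gene without such a region.
Aldh1l1, chr6:90500533-90500782, strand plus: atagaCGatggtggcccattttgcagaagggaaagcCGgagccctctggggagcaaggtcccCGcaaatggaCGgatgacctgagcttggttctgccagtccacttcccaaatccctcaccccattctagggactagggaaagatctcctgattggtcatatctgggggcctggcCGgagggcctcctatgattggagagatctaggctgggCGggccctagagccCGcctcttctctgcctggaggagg
Gja1, chr10:56096856-56097105, strand plus: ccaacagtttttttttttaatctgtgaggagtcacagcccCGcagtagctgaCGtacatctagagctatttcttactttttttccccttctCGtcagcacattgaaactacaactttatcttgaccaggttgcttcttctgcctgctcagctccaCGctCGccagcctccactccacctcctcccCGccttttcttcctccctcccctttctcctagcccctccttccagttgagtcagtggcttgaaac
Gfap, chr11:102758515-102758764, strand minus: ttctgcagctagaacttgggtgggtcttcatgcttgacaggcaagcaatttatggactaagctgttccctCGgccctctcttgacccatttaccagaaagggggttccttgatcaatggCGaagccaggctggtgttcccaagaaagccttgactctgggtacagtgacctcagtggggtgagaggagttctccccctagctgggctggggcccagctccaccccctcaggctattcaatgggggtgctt

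The next 3 promoters belong to Sox9, whose decrease was small, and to Slc1a2 and the internal start of Slc4a4, which were higher.
Sox9, chr11:112643288-112643537, strand plus: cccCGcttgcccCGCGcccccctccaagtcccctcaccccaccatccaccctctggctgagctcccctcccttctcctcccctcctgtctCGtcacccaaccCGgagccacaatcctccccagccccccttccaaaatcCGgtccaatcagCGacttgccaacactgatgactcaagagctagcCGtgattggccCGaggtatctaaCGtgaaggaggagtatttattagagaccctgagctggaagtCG
Slc1a2, chr2:102498566-102498815, strand plus: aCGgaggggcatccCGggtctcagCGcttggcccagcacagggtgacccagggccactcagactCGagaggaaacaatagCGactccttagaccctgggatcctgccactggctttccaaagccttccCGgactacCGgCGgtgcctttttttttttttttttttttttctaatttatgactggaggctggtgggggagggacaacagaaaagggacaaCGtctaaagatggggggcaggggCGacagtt
Slc4a4 region 2, chr5:89363307-89363556, strand plus: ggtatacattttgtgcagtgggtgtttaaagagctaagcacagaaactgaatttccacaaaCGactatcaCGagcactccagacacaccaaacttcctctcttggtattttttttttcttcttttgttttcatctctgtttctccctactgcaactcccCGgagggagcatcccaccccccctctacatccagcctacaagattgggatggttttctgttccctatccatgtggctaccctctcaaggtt

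Across the 11 promoters (10 regions and Gfap), both CpG-poor and CpG-richer sequences occurred among those that were lower. The observed over expected CpG ratio in the 250 bases was 0.694 at Fgfr3, 0.468 at Gja1, 0.321 at Aldh1l1, 0.242 at Slc1a3, 0.104 at Gfap, 0.101 at Aqp4 and 0.0675 at Aldoc. It was 0.557 at Sox9, 0.539 at Slc1a2 and 0.248 at the internal start of Slc4a4. The median over 22367 promoters of protein-coding genes was 0.504. The CpG-richest promoter was the first start of Slc4a4, at 0.87. Over the 10 whole regions, Spearman's rho between CpG ratio and the log2 change in tChIP-Seq was 0.43, and over 17968 regions on reference chromosomes it was -0.14. These are descriptions over regions that share the same libraries. Motifs were searched as plain letters on both strands. CCAAT stood in 6 of the 11 promoters and in 35.0% of all promoters, and GGGCGG (GC box) in 4 of the 11 and 40.1%. TTGGC, a recognition element of nuclear factor I, which drives astrocyte differentiation, stood in 3 of the 11 (Slc1a2, Aldoc and Sox9) and in 42.0% of all promoters, and its reverse complement shares 4 letters with CCAAT. TTCNNNGAA, the STAT motif, stood only at Slc1a3, and in 6.82% of all promoters. TATAAA also stood only at Slc1a3, and in 12.3% of all promoters.

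The first comparison asked how H3K4me3 at astrocyte genes differs between tagged chromatin of the Camk2a line and tagged chromatin of the Rosa line. The tag is made in Camk2a-positive neurons in the former and ubiquitously in the latter. In tChIP-Seq, 8 of the 10 astrocyte regions were called lower in the Camk2a line than in the Rosa line and 2 were called higher. Of all 17993 regions, 14.6% were called lower and 17.0% higher. The median log2 fold change of the 10 regions was -1.50, beside -0.0033 over all regions. The changes ranged from -2.86 at Aldh1l1 to 1.45 at the internal promoter of Slc4a4. In these tissue lysates, fewer chromatin fragments from a cell type and less H3K4me3 per cell cannot be told apart. The Rosa tChIP-Seq libraries, the reference here, also differed from single ChIP-Seq of their own line. In them, 8 of the 10 regions were called higher and 2 lower, beside 24.7% and 22.5% of all regions. Of 9 excitatory neuron regions, 8 were called lower there and 0 higher.

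**Figure D1:**
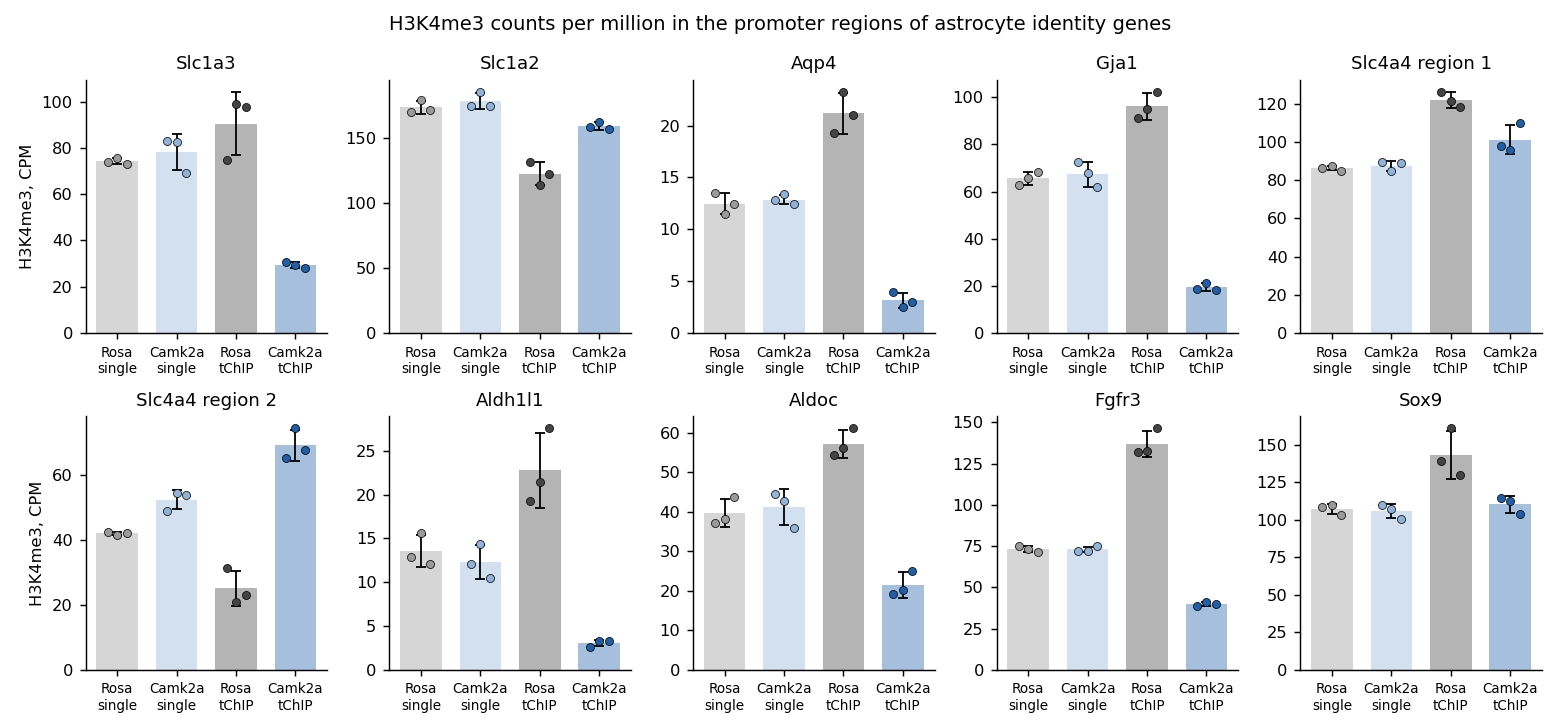
H3K4me3 level (CPM, vertical axes starting at 0) at the 10 astrocyte regions in each group; points are libraries, bars are means and error bars are SDs over 3 libraries. At 6 regions, with Aldh1l1 and Aqp4 at the lowest levels, the Camk2a tChIP libraries lie below all other groups, whereas Slc4a4 region 2 is highest there at 69.1 CPM.

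Among the glutamate transporters, Slc1a3 (GLAST, ENSMUSG00000005360.8, minus strand) and Slc1a2 (GLT-1, ENSMUSG00000005089.8, plus strand) differed in direction. The Slc1a3 region (chr15:8656321-8661303), which holds 6 transcript starts, had 143, 166 and 149 counts in the Rosa tChIP libraries and 94, 81 and 76 in the Camk2a tChIP libraries, although the latter were sequenced more deeply. Its level was 90.5 ± 13.7 CPM in Rosa and 29.4 ± 1.43 CPM in Camk2a tChIP-Seq, and the 2 groups did not overlap. This was a 3.03-fold decrease (log2 fold change -1.60, SE 0.114, adjusted p = 3.08e-21). The Slc1a2 region (chr2:102498137-102504642), the widest of the 10 at 6506 bp, had 252, 191 and 187 counts in Rosa and 485, 451 and 426 in Camk2a tChIP-Seq. Its level was 123 ± 8.79 CPM in Rosa and 160 ± 2.94 CPM in Camk2a, again without overlap, so Slc1a2 rose 1.30-fold (log2 fold change 0.38, SE 0.0696, adjusted p = 3.32e-06).

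Within the Slc1a2 locus, regions differed in sign in tChIP-Seq, although the intragenic ones had few counts. A 1108-bp region inside the gene (chr2:102515665-102516772), 24 bp from the start of a transcript that is not protein-coding, had 12, 17 and 26 counts in Rosa and 15, 7 and 17 in Camk2a tChIP-Seq. The groups overlapped, and the log2 fold change was -1.22 (SE 0.319, adjusted p = 0.00106). Without replicate 3 of Rosa tChIP-Seq or replicate 2 of Camk2a tChIP-Seq, its adjusted p was 0.0796 and 0.0166, and with the Wald test of DESeq2 it was 0.0111. The next region inside the gene (chr2:102516895-102518149) held no TSS and changed by -0.94 (adjusted p = 0.00449). It had 19, 15 and 23 counts in Rosa and 20, 15 and 14 in Camk2a tChIP-Seq. In single ChIP-Seq it changed by -0.35 (adjusted p = 0.323). Its difference between the assays (interaction) was -0.60 and was not called (adjusted p = 0.192). The promoter and these intragenic regions thus carried opposite signs in tChIP-Seq, with the limits just given for both intragenic regions.

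The channel and transporter genes included strongly reduced promoters and the most increased one. Aqp4 (ENSMUSG00000024411.8) encodes the water channel of astrocyte endfeet. Its region (chr18:15560643-15562295) had 37, 39 and 32 counts in Rosa and 12, 7 and 8 in Camk2a tChIP-Seq. Its level was 21.2 ± 1.98 CPM in Rosa and 3.14 ± 0.724 CPM in Camk2a, with no overlap, a 6.55-fold decrease (log2 fold change -2.71, SE 0.269, adjusted p = 1.49e-14). Gja1 (connexin 43, ENSMUSG00000050953.8) forms the gap junctions that couple astrocytes. Its region (chr10:56096666-56101167), with 1 TSS, had 175, 159 and 156 counts in Rosa and 57, 59 and 50 in Camk2a. These equalled 96.2 ± 5.64 and 19.5 ± 1.58 CPM, a 4.89-fold decrease with no overlap (log2 fold change -2.29, SE 0.119, adjusted p = 7.88e-29).

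Slc4a4 (ENSMUSG00000060961.8) encodes an electrogenic sodium bicarbonate cotransporter that regulates pH, and its 2 promoters separated. Region 1 (chr5:89315258-89318114) covers the first start and 3 further transcript starts. It had 242, 204 and 180 counts in Rosa and 298, 266 and 299 in Camk2a tChIP-Seq, or 122 ± 4.10 and 101 ± 7.71 CPM without overlap. The decrease was 1.20-fold (log2 fold change -0.27, SE 0.0774, adjusted p = 0.0032). This call was lost with the Wald test of DESeq2 (0.0243) and without Rosa replicate 1 (0.0307), Rosa replicate 2 (0.0103), Camk2a replicate 1 (0.0143) or Camk2a replicate 2 (0.0185), each an adjusted p. Region 2 (chr5:89362820-89365811) lies further inside the gene at the start of 1 protein-coding transcript. It had 60, 35 and 35 counts in Rosa and 199, 206 and 184 in Camk2a tChIP-Seq, with no overlap. Its level of 25.1 ± 5.52 CPM in Rosa stood against 69.1 ± 4.68 CPM in Camk2a, a 2.73-fold rise (log2 fold change 1.45, SE 0.130, adjusted p = 2.05e-16).

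Aldh1l1 (ENSMUSG00000030088.9), a folate enzyme used as a pan-astrocyte marker, changed most among the 10. Its region (chr6:90500715-90502215) had 37, 36 and 42 counts in Rosa tChIP-Seq and 8, 9 and 9 in Camk2a tChIP-Seq. Levels were 22.8 ± 4.28 and 3.06 ± 0.381 CPM without overlap, a 7.24-fold decrease (log2 fold change -2.86, SE 0.268, adjusted p = 1.48e-15), which ranked 86 from the lowest of all 17993 regions. Aldoc (ENSMUSG00000017390.9), the aldolase isozyme of astrocytic glycolysis, had 104, 94 and 93 counts in Rosa and 58, 56 and 68 in Camk2a in its region (chr11:78136395-78139684). Levels of 57.1 ± 3.50 and 21.4 ± 3.19 CPM gave a 2.65-fold decrease without overlap (log2 fold change -1.41, SE 0.136, adjusted p = 4.81e-15).

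Gfap encodes the intermediate filament of astrocytes, and 2 regions lay within 1000 bp of its starts without covering them. The nearer one (chr11:102757770-102758233), 212 bp from a TSS, had 10, 9 and 6 counts in Rosa and 2, 2 and 4 in Camk2a tChIP-Seq. It fell by 2.31 on the log2 scale (SE 0.526, adjusted p = 0.000171). The farther one (chr11:102756622-102757755) had 31, 23 and 22 against 12, 5 and 4 counts and fell by 2.56 (SE 0.318, adjusted p = 7.83e-11). In neither did the groups overlap, although the counts are low.

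Fgfr3 (ENSMUSG00000054252.9), a fibroblast growth factor receptor, and Sox9 (ENSMUSG00000000567.4), a transcription factor of the astrocyte lineage, fell by very different amounts. The Fgfr3 region (chr5:34064033-34068136) had 253, 222 and 223 counts in Rosa and 118, 113 and 109 in Camk2a tChIP-Seq. Levels of 137 ± 8.14 and 39.9 ± 1.06 CPM gave a 3.41-fold decrease without overlap (log2 fold change -1.77, SE 0.0917, adjusted p = 7.88e-29). The Sox9 region (chr11:112642176-112648129), which also holds a start of the noncoding gene BC006965, had 267, 270 and 198 counts in Rosa and 349, 312 and 282 in Camk2a. Levels were 143 ± 16.0 and 110 ± 5.66 CPM, also without overlap, a 1.29-fold decrease (log2 fold change -0.37, SE 0.0745, adjusted p = 1.99e-05).

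Ordered by the change in tChIP-Seq, the 10 regions formed 5 steps whose 95% intervals did not overlap at the borders. Aldh1l1, Aqp4 and Gja1 were the lowest, and neighbours within this step were not separated by their intervals. Fgfr3, Slc1a3 and Aldoc followed, then Sox9 with Slc4a4 region 1, then Slc1a2, and last Slc4a4 region 2. Per kilobase of region, in Rosa tChIP-Seq the Slc4a4 region 1 level was highest at 42.7 ± 1.43 CPM per kb and Fgfr3 followed at 33.4 ± 1.98, while Aqp4 had 12.8 ± 1.20 and Slc4a4 region 2 had the lowest level at 8.37 ± 1.85. In Camk2a tChIP-Seq, Slc4a4 region 1 was still highest at 35.5 ± 2.70 CPM per kb, and Aqp4 (1.90 ± 0.438) and Aldh1l1 (2.04 ± 0.254) were the lowest and overlapped each other within 1 SD.

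The same comparison without the FLAG step gave the background, and there 9 of the 10 regions were not called. In single ChIP-Seq, 0 of the 10 regions were called lower in the Camk2a line and 1 was called higher, while 1.22% of all regions were called lower and 0.928% higher. The median log2 fold change of the 10 was 0.04. The called region was Slc4a4 region 2, with 292, 348 and 257 counts in Rosa and 199, 228 and 216 in Camk2a single ChIP-Seq. Scaled for depth these were 42.0 ± 0.333 and 52.4 ± 2.98 CPM (log2 fold change 0.32, SE 0.0779, adjusted p = 0.00474). This call was lost with DESeq2 (adjusted p = 0.169), and without Rosa replicates 1 (0.0102), 2 (0.0239) or 3 (0.0161) or Camk2a replicates 2 (0.0541) or 3 (0.0298). At the other 9 regions the groups overlapped and log2 fold changes lay between -0.16 at Aldh1l1 and 0.07 at Slc1a3. The interval was widest at Aqp4 and Aldh1l1, whose counts are lowest. For Aqp4, with 93, 96 and 76 counts in Rosa and 52, 56 and 50 in Camk2a single ChIP-Seq, the difference was 0.05 (95% interval -0.24 to 0.34), and for Aldh1l1, with 89, 131 and 74 against 49, 60 and 42 counts, it was -0.16 (-0.45 to 0.13).

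**Figure D2:**
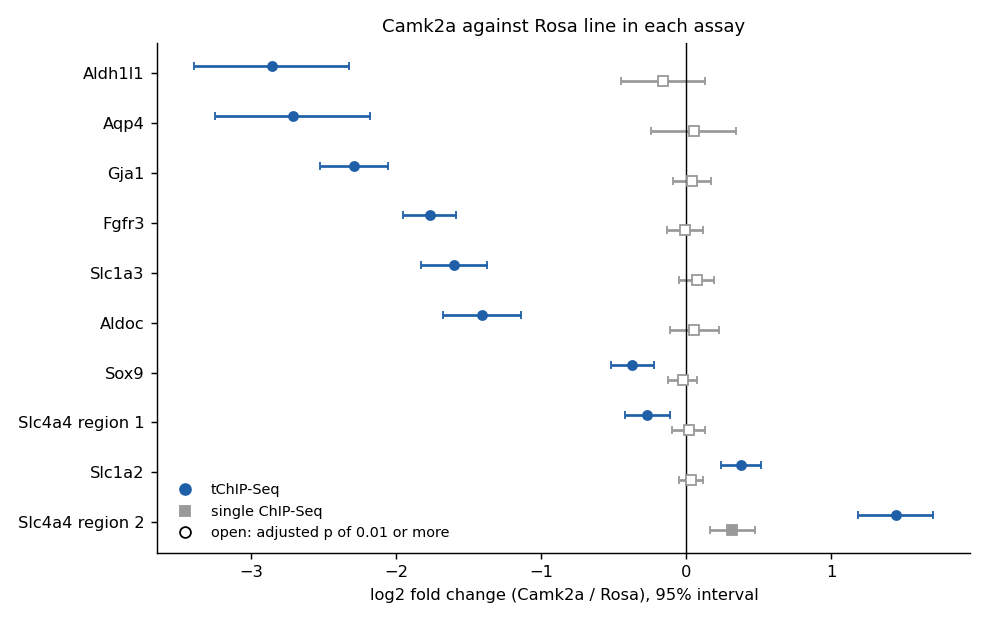
Log2 fold change of the Camk2a against the Rosa line at the 10 astrocyte regions (horizontal axis) with 95% intervals, in tChIP-Seq (circles) and single ChIP-Seq (squares); open symbols are not called. In tChIP-Seq the values run from -2.86 at Aldh1l1 to 1.45 at Slc4a4 region 2, and in single ChIP-Seq they stay between -0.16 and 0.32.

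Whether the effect of the line differed between the assays was tested as an interaction over all 12 libraries. All 10 regions passed this test, 8 with a more negative difference in tChIP-Seq and 2 with a more positive one, while 13.2% of all regions were called lower and 13.7% higher. The interaction ranged from -2.78 at Aqp4 (SE 0.315, adjusted p = 2.7e-15) to 1.12 at Slc4a4 region 2 (SE 0.155, adjusted p = 6.29e-11). The smallest was Slc4a4 region 1 at -0.29 (SE 0.0961, adjusted p = 0.00935). Its adjusted p rose to 0.0111 to 0.0429 when any of 9 of the 12 libraries was left out (all but Rosa tChIP replicate 3, Camk2a single replicate 2 and Camk2a tChIP replicate 3), and to 0.0255 with DESeq2. For Sox9, the interaction of -0.36 (SE 0.0901, adjusted p = 0.000498) became -0.27 (adjusted p = 0.0242) without Rosa tChIP replicate 2.

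The FLAG step itself was examined within each line by setting tChIP-Seq against single ChIP-Seq. These comparisons share their libraries with those above and are given side by side. The authors reported sites enriched and sites depleted between these assays in the Rosa line. As possible reasons they propose a bias to longer DNA after the FLAG step, or effects of the tagged histone. Their own differential analyses therefore mainly set tChIP-Seq of the 2 lines against each other. The part of such biases in the values below was not tested. In the Rosa line, where the tag is ubiquitous, 8 of the 10 regions were called higher in tChIP-Seq and 2 lower, while 24.7% of all regions were called higher and 22.5% lower. Fgfr3 rose most, from 518, 613 and 436 counts (73.2 ± 1.85 CPM) without the FLAG step to 253, 222 and 223 counts (137 ± 8.14 CPM) with it, or by 0.91 on the log2 scale (SE 0.0702, adjusted p = 7.35e-36). Aqp4 (0.78), Aldh1l1 (0.72), Gja1 (0.56), Aldoc (0.54), Slc4a4 region 1 (0.51), Sox9 (0.43) and Slc1a3 (0.28) rose too. At Slc1a3 the groups overlapped, at 73.0 to 75.5 CPM in single ChIP-Seq and 74.6 to 99.0 CPM in tChIP-Seq. Its adjusted p of 0.00118 became 0.0687 and 0.0376 without Rosa tChIP replicates 2 and 3, and that of Aldh1l1 (6.64e-05) became 0.0101 without Rosa tChIP replicate 3. The 2 regions that fell were Slc1a2, from 174 ± 4.97 to 123 ± 8.79 CPM (log2 fold change -0.49, SE 0.0611, adjusted p = 1.57e-14), and Slc4a4 region 2, from 42.0 ± 0.333 to 25.1 ± 5.52 CPM (-0.71, SE 0.131, adjusted p = 2.96e-07). The Rosa tChIP libraries here are also the reference of the first comparison, in which both of these regions were higher in the Camk2a line.

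In the Camk2a line, the FLAG step left 7 of the 10 regions called lower and 2 called higher, while 22.6% of all regions were called lower and 25.3% higher. Aqp4 fell by 2.01 on the log2 scale (SE 0.263, adjusted p = 1.05e-11), from 12.9 ± 0.455 to 3.14 ± 0.724 CPM. Aldh1l1 fell by 2.00 (SE 0.270, adjusted p = 3.73e-11), from 12.3 ± 1.93 to 3.06 ± 0.381 CPM. Gja1 (-1.79), Slc1a3 (-1.41), Aldoc (-0.94) and Fgfr3 (-0.87) fell without overlap of the libraries. The change at Slc1a2 was small, with 712, 779 and 701 counts (179 ± 6.29 CPM) in single ChIP-Seq and 160 ± 2.94 CPM in tChIP-Seq (log2 fold change -0.16, SE 0.052, adjusted p = 0.00448). That call was lost with library totals (0.0114), with DESeq2 (0.0451) and without Camk2a single replicate 2 (0.0423), Camk2a tChIP replicate 1 (0.0151) or replicate 3 (0.0191). Sox9 was not called, at 106 ± 4.71 CPM in single ChIP-Seq, from 446, 450 and 404 counts, and 110 ± 5.66 CPM in tChIP-Seq (log2 fold change 0.06, 95% interval -0.07 to 0.19, adjusted p = 0.424). Slc4a4 region 2 rose by 0.40 (SE 0.0854, adjusted p = 2.44e-05) and Slc4a4 region 1 by 0.21 (SE 0.0683, adjusted p = 0.00621). The second of these was lost with DESeq2 (0.062) and without Camk2a single replicates 1 (0.0102), 2 (0.0339) or 3 (0.011) or Camk2a tChIP replicate 3 (0.108).

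**Figure D3:**
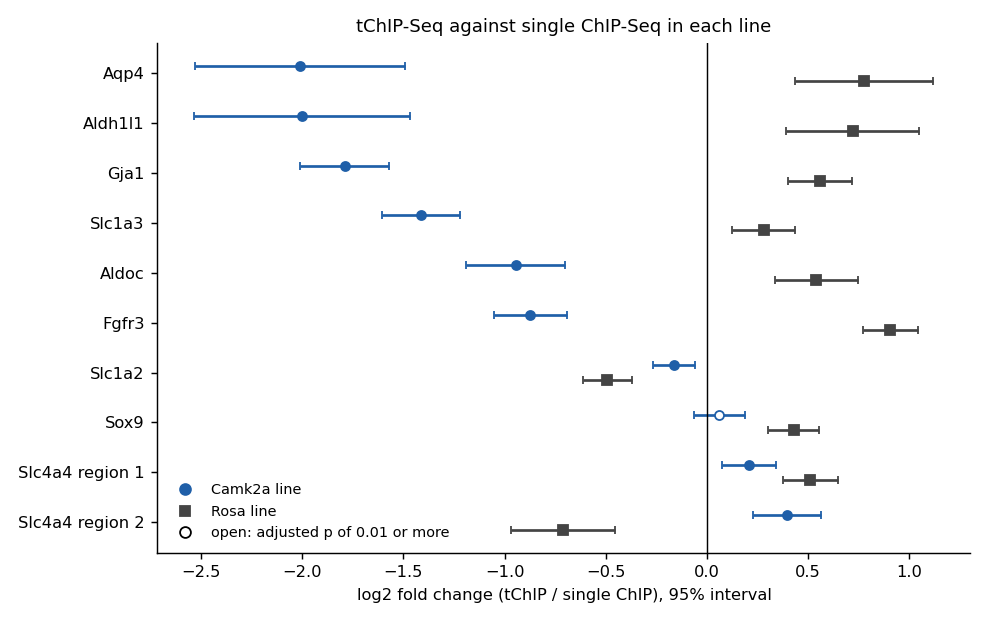
Log2 fold change of tChIP-Seq against single ChIP-Seq at the 10 astrocyte regions (horizontal axis) with 95% intervals, in the Camk2a line (circles) and the Rosa line (squares); the open symbol is not called. Aqp4, Aldh1l1, Gja1, Slc1a3, Aldoc and Fgfr3 lie below 0 in the Camk2a line and above 0 in the Rosa line, and Slc4a4 region 2 does the reverse.

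Summed over the 10 regions, H3K4me3 was 683 to 699 CPM in Rosa and 683 to 725 CPM in Camk2a single ChIP-Seq, 819 to 850 CPM in Rosa tChIP-Seq and 551 to 563 CPM in Camk2a tChIP-Seq. The 2 tChIP-Seq groups did not overlap. Correlated over the 12 libraries with the mean centred profile of the 10 regions, on the scale log2(CPM + 1), Gja1 had r = 0.99, Aldh1l1 0.99, Aqp4 0.99, Slc1a3 0.98, Aldoc 0.98 and Fgfr3 0.95. Sox9 had 0.48, Slc4a4 region 1 had 0.20, Slc1a2 had -0.36 and Slc4a4 region 2 had -0.85. These correlations describe 12 libraries in 4 groups and include each region in its own mean.

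Among 12076 other promoter regions with at least 500 counts, the 5 whose pattern was most like that mean were Utrn (r = 0.997), Oaf (0.994), Nr2f2 (0.994), Slc9a3r1 (0.994) and Rapgef3 (0.994). Utrn encodes utrophin, a dystrophin-related protein, and its H3K4me3 was 23.5 CPM in Rosa and 2.93 CPM in Camk2a tChIP-Seq. The corresponding means were 87.6 and 13.2 CPM at Oaf, 136 and 19.2 CPM at Slc9a3r1, which encodes a scaffold protein of the plasma membrane, 126 and 41.0 CPM at Rapgef3, and 165 and 88.1 CPM at Nr2f2, a nuclear receptor. All 5 were chosen by this likeness, so their values are a description.

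The nearest promoter regions of other genes were examined on either side of each astrocyte gene, Gfap included. Of these 20 regions, 2 were called lower and 4 higher in tChIP-Seq of the Camk2a line, beside 14.6% and 17.0% of all regions, and their median log2 fold change was 0.02. The promoter of Pigs, 0.225 kb from the Aldoc gene, changed by 0.02 (adjusted p = 0.892), and that of Slc41a3, 4.16 kb from Aldh1l1, by 0.06 (adjusted p = 0.786). On the other side of Aldh1l1, Klf15 changed by -0.01 (adjusted p = 0.956). The 2 that fell were Ranbp3l, 256.6 kb from Slc1a3 (-0.67, adjusted p = 0.000346), and Kif18b, 23.67 kb from Gfap (-0.65, adjusted p = 0.00116). Pamr1, 107 kb from Slc1a2, rose by 0.60 (adjusted p = 1.54e-05), and Adamts3 (0.41), Kcnj2 (0.41) and Kctd1 (0.28) rose as well. Many of these nearest promoters are far away. Kcnj2 lies 1713 kb from Sox9, Hsf2 1095 kb from Gja1, Adamts3 641.8 kb from Slc4a4 and Kctd1 237.3 kb from Aqp4. Cd44, on the other side of Slc1a2, is also counted below among reactive astrocyte genes.

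**Figure D4:**
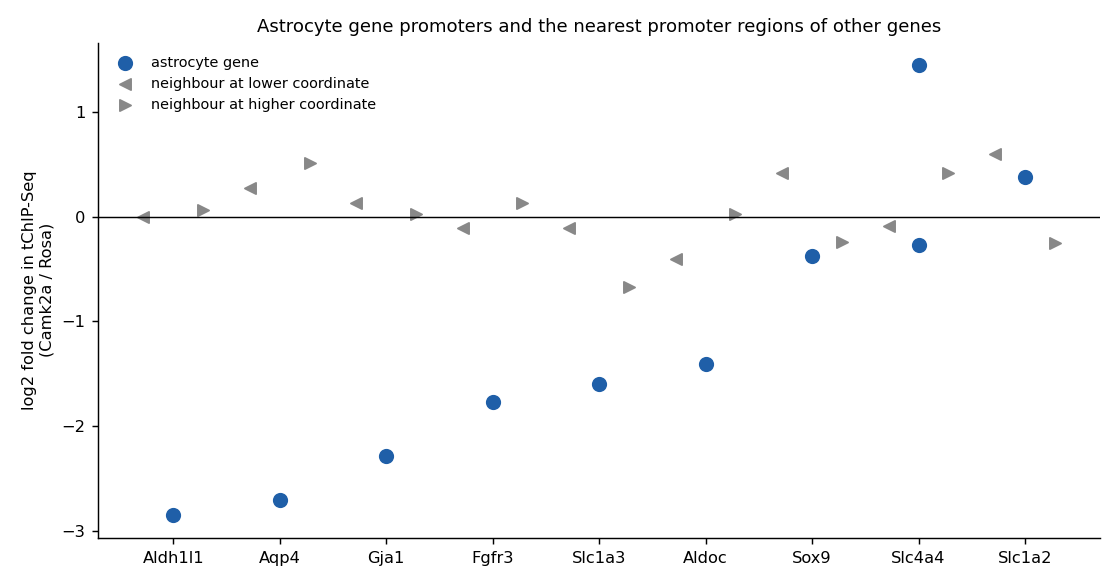
Log2 fold change in tChIP-Seq (Camk2a against Rosa, vertical axis) of each astrocyte gene's promoter regions (circles) and of the nearest promoter region of another gene at lower and higher coordinates (triangles), ordered by gene. The neighbours lie between -0.67 and 0.60, and 6 astrocyte promoters lie below -1.4.

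A wider set of genes known from astrocytes was counted in the same way. Of 71 other astrocyte genes, 61 had 70 promoter regions here. In tChIP-Seq, 36 of these regions were called lower in the Camk2a line, 5 higher and 29 neither, beside 14.6% lower and 17.0% higher among all regions. Their median log2 fold change was -0.52 (33 to 39 lower and a median of -0.59 to -0.42 under the alternatives). The 33 were out of 63 regions left by the minimum of 10 counts in every library. In single ChIP-Seq, 0 of the 70 were called, with a median of 0.01. Among transport and channel genes, 8 of 10 regions fell and 0 rose (1 without Rosa tChIP replicate 3). Slc38a3, a glutamine transporter, went from 83.8 ± 6.64 CPM in Rosa to 13.2 ± 3.87 CPM in Camk2a tChIP-Seq (log2 fold change -2.65), and Slc7a10, an amino acid transporter, from 21.6 ± 4.60 to 4.69 ± 0.422 CPM (-2.18). Among receptors and surface proteins, 7 of 12 regions fell, including Vcam1 (-2.53), an adhesion molecule, and Cd9 (-1.81), a tetraspanin. Of the 6 groups, endfoot complex genes had the median nearest 0. There, 2 of 7 regions fell (a region of Dtna at -0.86 and Sntb1 at -0.65) and the median was -0.04, which lay between -0.11 and 0.02 under the alternatives. The Dtna call was lost without Rosa tChIP replicate 2 (adjusted p = 0.011), which left 1 of 7.

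The next counts stand beside 14.6% of all regions called lower and 17.0% called higher in tChIP-Seq. No list here had a share called higher above that 17.0%. Of 12 metabolic genes, 7 fell, led by Acsbg1 (-2.18), an acyl-CoA synthetase, and Aass (-1.43), which degrades lysine, and 1 rose, the metallothionein Mt3 (0.68). Of 12 genes for secreted proteins, 5 fell, led by the lipid carrier Apoe (-3.13, SE 0.140, adjusted p = 1.83e-32) and the matrix protein Sparc (-2.25), and 2 rose, Gpc6 (0.37) and Cpe (0.32), of which 1 was left without Camk2a tChIP replicate 3. Apoe went from 92.7 ± 7.93 CPM in Rosa to 10.5 ± 1.71 CPM in Camk2a tChIP-Seq. Of 17 regions of transcription factor genes, 7 fell and 2 rose. Zbtb20 showed again that promoters of 1 gene can differ, since 2 of its 4 regions fell (-2.25 and -2.17) and the other two changed by 0.17 and -0.30 without being called. The 2 that rose belong to Nfix (0.88) and Lhx2 (0.60), and the second Nfix region was not called (0.23, adjusted p = 0.0132). Only 5 of 10 reactive astrocyte genes had a region, with 5 regions in all. Of these regions, 4 fell, including Osmr (-2.46), the oncostatin M receptor, and Nes (-1.70), encoding nestin.

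Lists of other cell types were measured in the same libraries. Among all regions, 14.6% were called lower and 17.0% higher in tChIP-Seq. In tChIP-Seq, all 9 excitatory neuron regions rose in the Camk2a line with a median of 1.33, among them Camk2a (2.27), whose promoter drives Cre in that line and which was also called in single ChIP-Seq (0.52), and Slc17a7 (1.65), the vesicular glutamate transporter. Their summed level was 610 to 663 CPM in Rosa and 1522 to 1624 CPM in Camk2a tChIP-Seq. Of 12 endothelial regions, 11 fell with a median of -2.17, led by Robo4 (-3.09) and Cdh5 (-3.01), and the sum was 434 to 446 CPM in Rosa and 134 to 142 CPM in Camk2a. With a minimum of 10 counts in every library, 6 endothelial regions were left and 5 of them were lower, with a median of -1.67. Of 11 oligodendrocyte regions, 9 fell and 1 rose with a median of -1.34, led by Olig2 (-2.48) and Mag (-2.19), and the sum was 452 to 493 CPM in Rosa and 267 to 278 CPM in Camk2a. The region that rose is the upstream promoter of Mbp (1.18), named after its value was seen. Of 8 inhibitory neuron regions, 5 fell with a median of -0.76, including Dlx2 (-1.30) and Lhx6 (-1.20), and the sum was 192 to 211 CPM in Rosa and 123 to 131 CPM in Camk2a. Under the alternatives, 4 to 6 inhibitory neuron regions were lower, and 8 to 10 oligodendrocyte regions (8 of 10 left by the minimum of 10 counts). Of 3 pericyte and smooth muscle regions 2 fell, Pdgfrb (-2.67) and Anpep (-1.96), and of 2 ependymal and choroid plexus regions 1 was called lower, Foxj1 (-0.63, adjusted p = 0.00389). The minimum of 10 counts left 2 pericyte and smooth muscle regions, of which 1 was lower. At Foxj1 the libraries of the lines overlapped, and 0 of the 2 regions were called with DESeq2 or without Rosa tChIP replicate 1, Rosa tChIP replicate 2 or Camk2a tChIP replicate 1. Most regions of the endothelial, oligodendrocyte, inhibitory neuron and pericyte lists were thus lower in the libraries in which most astrocyte regions were lower, and those of excitatory neurons were higher there. Their part in the result was not tested.

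**Figure D5:**
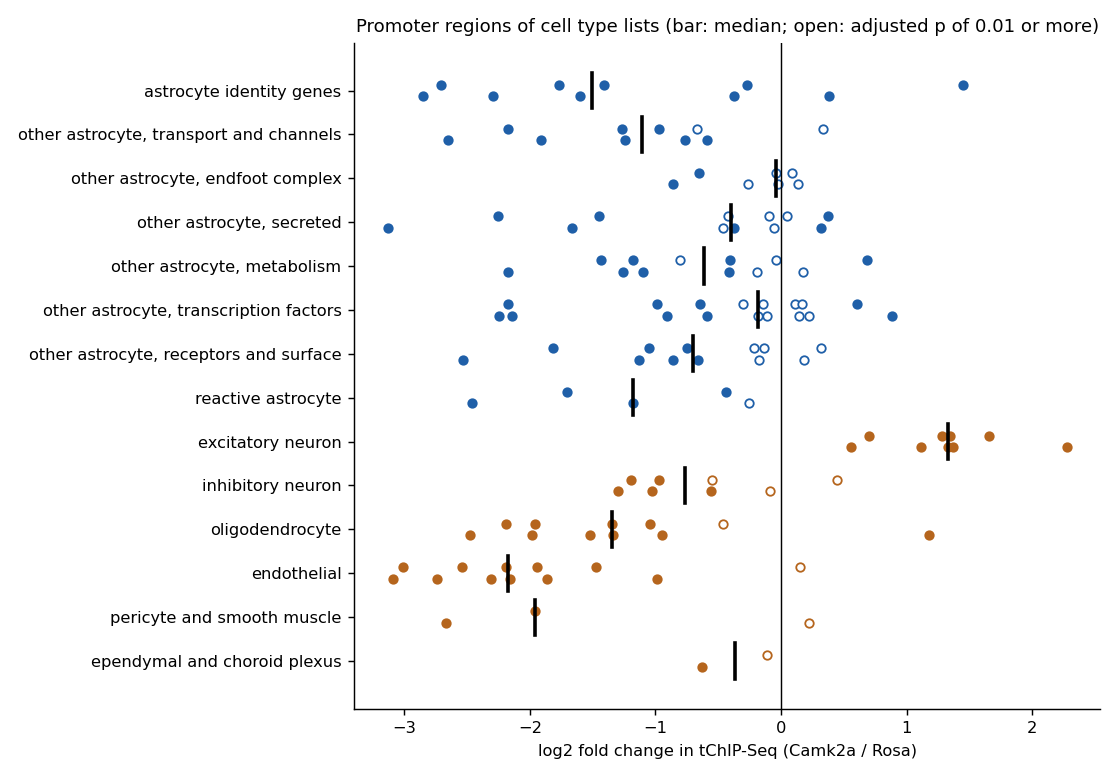
Log2 fold change in tChIP-Seq (Camk2a against Rosa, horizontal axis) of the promoter regions of the gene lists named on the vertical axis; points are regions, filled where called, and bars are medians. The astrocyte identity genes have a median of -1.50, between endothelial cells at -2.17 and excitatory neurons at 1.33.

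In single ChIP-Seq, the oligodendrocyte list was the one with more than 1 called region, with 3 of 11 lower in the Camk2a line and a median of -0.16. The sums of the endothelial list (328 to 357 CPM in Rosa and 349 to 355 CPM in Camk2a) and of the 10 astrocyte regions overlapped between lines there. In the Rosa line, tChIP-Seq against single ChIP-Seq raised 34 of the 70 other astrocyte regions and lowered 11, with a median of 0.35, beside 24.7% higher and 22.5% lower among all regions. It lowered 8 of 9 excitatory neuron regions, with a median of -0.81. In the Camk2a line the same comparison lowered 32 of the 70 and raised 8, with a median of -0.27, beside 22.6% lower and 25.3% higher among all regions. It raised 8 of the 9 excitatory neuron regions, with a median of 0.38.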

How the data were processed

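Mouse cerebral cortex gave 4 groups of 3 H3K4me3 libraries, from single ChIP-Seq and tChIP-Seq of 2 lines. The other 12 libraries of the series (input and FLAG) were not analysed here. Per the labels and the methods, the authors removed reads mapping to repeats with Bowtie2 2.1.0, mapped the rest to mm9 with Bowtie 1.0.0, filtered duplicates (SAMtools rmdup), and used bedtools 2.17.0 to count reads in peaks from MACS 1.4.2 that recurred in triplicates. The deposited values are raw counts, without normalization, over the same 17993 regions in each library, with total counts per library from 1457261 to 8644574. Removal of duplicates and of repeats can lower counts at dense or repetitive promoters. Regions were matched to TSSs of GENCODE M1 on NCBIM37, which is mm9.

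Counts were tested in edgeR 4.0.16 (R 4.3.3) with TMM, glmQLFit and glmQLFTest, with no low-count filter, for each comparison of 2 groups on its own 6 libraries and for the interaction on 12. Adjusted p is Benjamini-Hochberg over all regions, called under 0.01, the SE is the size of the log2 fold change over the square root of F, and libraries overlap or not by CPM. CPM used 1 TMM normalization over 12 libraries. The scripts were tested on simulated data. Alternatives were DESeq2 1.42.0 (size factors, Wald test), library totals, a minimum of 10 counts in every library, all libraries in 1 fit, a replicate block, a threshold of 0.05, TSSs within 1000 bp, protein-coding TSSs alone, and leaving out each library. The 10 genes and all lists were chosen with earlier results of these data known, and support nothing by themselves. Named were all members, 2 examples per other list (the largest changes among called regions without overlap in tChIP-Seq), the 5 regions most like the members' mean profile and the nearest promoter neighbours. Other members of a list are named where it has 5 or fewer that moved or where one stands apart, and these were chosen after their values were seen. Promoter motifs were counted in 250 bases before 1 TSS per region. The result of 1 list of another cell type is not reported here.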

Additional observations from a re-analysis of the deposited data

Results flagged for a closer look

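The effect of the line differed between tChIP-Seq and single ChIP-Seq at each of the 10 astrocyte regions, by the interaction term of edgeR's quasi-likelihood test at an adjusted p under 0.01. The interaction, on the log2 scale, was -2.78 at Aqp4, -2.71 at Aldh1l1, -2.34 at Gja1, -1.77 at Fgfr3, -1.68 at Slc1a3, -1.47 at Aldoc, -0.36 at Sox9 and -0.29 at Slc4a4 region 1. It was 0.34 at Slc1a2 and 1.12 at Slc4a4 region 2. The causes were not tested.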

How the results depend on the processing

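Of 644 values of single regions under alternatives, 601 kept their direction and their side of the threshold, 35 lost their call and 8 changed sign. The numbers of called members were unchanged or within 1.5 times under every alternative run, except in single ChIP-Seq, where the 1 called region became 0 with the Wald test of DESeq2 and 0 to 1 when single libraries were left out. The minimum of 10 counts in every library removed Aqp4 and Aldh1l1, the largest decreases, wherever Camk2a tChIP libraries were used. They were thus not tested in that setting, and between the lines in tChIP-Seq the 8 regions left were all called. The 8 sign changes all concern uncalled differences of the lines in single ChIP-Seq. They were 0.006 at Sox9 and 0.0209 at Fgfr3 with library totals and, with 1 library left out, within ranges of -0.0146 to 0.1138 at Aqp4, -0.017 to 0.093 at Gja1, -0.0041 to 0.1428 at Aldoc, -0.05 to 0.0096 at Sox9 and -0.0276 to 0.0085 at Fgfr3. Of 282 values of 24 of the regions named from other lists in tChIP-Seq (Foxj1, Gpc6 and Cpe are not among them), 1 lost its call (Dtna without Rosa replicate 2, adjusted p = 0.011) and 0 changed sign. With library totals, lower regions were 3315 of 5885 called between the lines in tChIP-Seq (2620 of 5682 with TMM), 57 of 251 in single ChIP-Seq (219 of 386), 2970 of 4864 for the interaction (2375 of 4841) and 2522 of 7820 between assays in Rosa (4046 of 8485), and the median of all regions shifted by at most 0.0996. In single ChIP-Seq, 34 regions were called by DESeq2, 1191 at a threshold of 0.05, and 118 (without Camk2a replicate 2) to 296 (without Rosa replicate 1) when a library was left out. Between assays in the Camk2a line DESeq2 called 5563 regions in place of 8617. Single ChIP-Seq and tChIP-Seq libraries of the same replicate number did not deviate together (r from -0.0115 to 0.0447 over 13940 regions). With a replicate block, called members were 10, 1, 10, 10 and 9 for the line by tChIP-Seq, the line by single ChIP-Seq, the interaction, the assay in Rosa and the assay in Camk2a, as without it, and called regions in tChIP-Seq were 5468. Depth limits Aqp4, Aldh1l1 and the Gfap regions, with 2 to 12 counts per Camk2a tChIP library.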
